A study of Homo sapiens with 12 samples.

Results

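The genes of the nuclear pore complex and of the carriers that pass through it were examined in Huh7 cells with and without knockdown of FAM111B. Members were taken by name from the deposited expression table. They are the genes whose symbol starts with NUP and a digit, the KPNA, KPNB, IPO, XPO and TNPO families, and TPR, RANBP2, SEH1L, AAAS, NDC1, POM121, RAE1, SEC13 and RAN. Of the 60666 listed genes, 78 matched by name, and the 20 described as pseudogenes were left out, which leaves 58. Of these 58, 55 are protein-coding, 31 of them nucleoporins and 23 transport receptors, with RAN as the remaining one. The other 3 are noncoding RNAs that carry a member's name.

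The nuclear pore is a channel through the nuclear envelope, built from many copies of proteins called nucleoporins. Its scaffold is made of outer and inner rings anchored by membrane proteins, and its channel is lined by nucleoporins rich in phenylalanine-glycine (FG) repeats. Importins and exportins bind cargo on one side, pass the FG repeats and release it on the other, and the direction is set by the small GTPase Ran, which is loaded with GTP in the nucleus and hydrolyses it in the cytoplasm.

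Huh7 is an established human hepatocellular carcinoma line. The control group (NC) and the FAM111B knockdown group each had 3 libraries, and the knockdown group is called shFAM111B here. According to the study's methods, the short hairpin RNA was delivered by lentivirus and the cells were kept under puromycin, and a single target sequence is given. The study says in general that experiments were repeated, but nothing states for the sequencing that the 3 libraries of a group came from separate cultures, so the p-values measure only the spread between these libraries, which may be technical. The values are TPM, a transcript abundance: by definition they divide the reads of a gene by its length and scale each library to a fixed total. The listed genes summed to 994314 to 997094 TPM in the control and 978634 to 994115 TPM in the shFAM111B libraries. The values are shares of a library, and the depth behind them is unknown. Bulk RNA also cannot tell fewer cells of a kind from less RNA per cell. Genes that reached 1 TPM or more in 3 libraries or more were tested, 14394 in all and 56 of the 58 members. NUP210L, at 0.07 to 0.24 TPM, and KPNA7, at 0.31 to 0.8 TPM, did not. Of the tested members, 54 reached 1 TPM in every library, so those were not let in by one group only. The other 2, NUP153-AS1 and IPO9-AS1, are noncoding, and NUP153-AS1 reached 1 TPM in 2 controls and all 3 shFAM111B libraries, so it entered through the group where it was higher. Log2(TPM + 1) was compared with limma-trend, and log2 fold changes (shFAM111B over control) are on that scale, which understates the change of low genes.

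FAM111B, the targeted gene, was present at 7.84, 8.29 and 7.99 TPM in the control libraries and at 0.96, 1.13 and 0.84 TPM in the shFAM111B libraries. The groups did not overlap, and the mean in shFAM111B cells was 12.2% of that in control cells (log2 fold change -2.20). FAM111B passed the filter through the control libraries, where it was higher, so this change is given as a description. The target of the hairpin is shown because an unintended match in a pore gene would bear on everything that follows. It is 19 bases long.
shFAM111B target: ctgcctagtgattctcatt
The target lies at chr11:59124545-59124563 on the plus strand of GRCh38, in the coding sequence of the last exon of FAM111B (exon 4 of 4 in FAM111B-201). Among 206694 annotated transcripts searched on both strands, the exact sequence was found in 5 transcripts, all of FAM111B. None of the 634 transcripts of the 58 members held it, and the closest site in a member, in NUP210, had 3 mismatches. The search covered the full 19 bases only. Shorter matches were not searched, so an unintended effect of the hairpin on a member was not tested.

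The content of the libraries was checked with cell markers, which were chosen with earlier results of these data known. The hepatocyte genes ALB and AFP were among the most abundant, at 6444 ± 41.1 and 7274 ± 199.9 TPM in control cells (SD, n = 3), and all 8 hepatocyte markers were present, with 4 higher and 4 lower after knockdown. Leukocyte markers summed to 15.4 to 19.1 TPM in control and 22.0 to 23.8 TPM in shFAM111B libraries, most of it CD68 (16.3 ± 1.3 and 22.6 ± 0.755 TPM), whereas CD3E stayed at or below 0.13 TPM. Endothelial markers summed to at most 3.49 TPM, with PECAM1 as the main one and KDR at 0 in all 6 libraries. Fibroblast and stellate markers summed to at most 17.03 TPM, mostly COL1A2, with DCN at or below 0.1 TPM. Markers of kidney, lung, thyroid and prostate epithelium summed to at most 1.07 TPM. Replicates 1 and 2 of shFAM111B stood apart in their short noncoding RNA: rRNA, snRNA, snoRNA and misc_RNA genes took 46620 and 68690 TPM there, against 5007 TPM in replicate 3 and 1645 to 4833 TPM in the controls. The mitochondrial chromosome also took less of each shFAM111B library (76830, 78880 and 73240 TPM) than of each control library (201300, 201500 and 196100 TPM). The part of these shifts in the results was not tested, but results are also given for replicate 3 alone.

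Most of the tested pore and transport genes were lower after knockdown. Of the 56 tested members, 44 fell and 4 rose at an adjusted p under 0.05, and the 44 that fell are 78.6% of them, beside 50.9% of all tested genes. The 4 that rose are 7.14%, beside 21.1% of all tested genes, and 1 of them is NUP153-AS1. With median-of-ratios scaling the split was 32 lower and 12 higher, beside 35.2% and 35.8% of all tested genes. With the study's threshold of at least 2-fold at P under 0.05, 27 members fell (48.2%, beside 23.7% of all tested genes). The 1 that rose (1.79%, beside 6.82%) was NUP153-AS1, which the filter let in through the shFAM111B libraries. This contrast depends on the treatment of the values: 12 to 17 members were lower at 2-fold under the 4 scalings that brought the median of all genes closer to 0 (beside 9.07% to 13.3% of all tested genes), and 5 of 56 after removal of the length trend described further on, beside 9.17% of all. In 44 members all shFAM111B libraries lay below all controls and in 6 all lay above, beside 52.8% and 22.5% of all tested genes. The median log2 fold change of the 56 was -0.92, with an SD of 0.0322 over the 3 shFAM111B libraries, and that of all tested genes was -0.36, so a change near -0.36 is that of the median gene on this scale. Replicate 3 alone against the controls gave 40 lower and 5 higher members at a median of -0.89, with 44.8% of all tested genes lower and 19.3% higher, and here the lone library is assumed to vary like the controls.

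**Figure D1:**
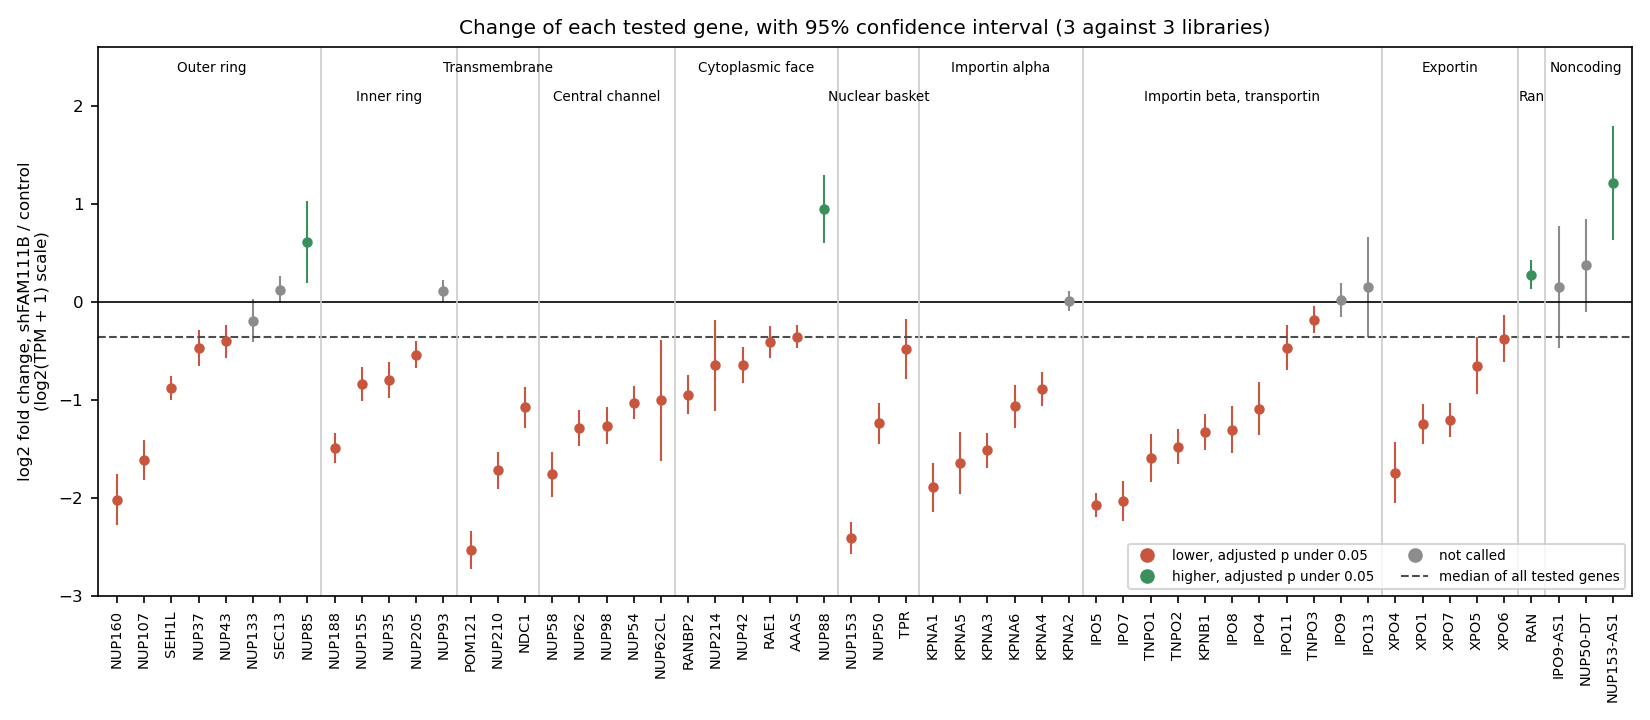
Log2 fold change (shFAM111B over control, log2(TPM + 1) scale) of each of the 56 tested members with its 95% confidence interval, grouped by role, with the dashed line at the median of all tested genes (-0.36). The 44 genes that fell reach down to POM121 at -2.53, and NUP85, NUP88, RAN and NUP153-AS1, which the filter let in through the shFAM111B libraries, are the 4 called higher.

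In the control libraries the members covered a wide range of levels. RAN was the most abundant at 420.1 ± 32.0 TPM (SD, n = 3), followed by KPNA2 at 294 ± 9.61, SEC13 at 268 ± 7.25 and KPNB1 at 171 ± 8.11 TPM, and each of these gaps was wider than the spread of its neighbours. IPO5, NUP88, XPO1, SEH1L, NUP107 and IPO4 came next, between 69.7 and 90.2 TPM, and the spreads of most neighbours overlapped. RAN, KPNA2 and SEC13 kept the first 3 places in shFAM111B cells, where NUP88 moved from the sixth to the fourth and POM121 from rank 11 to rank 43 of the 56.

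**Figure D2:**
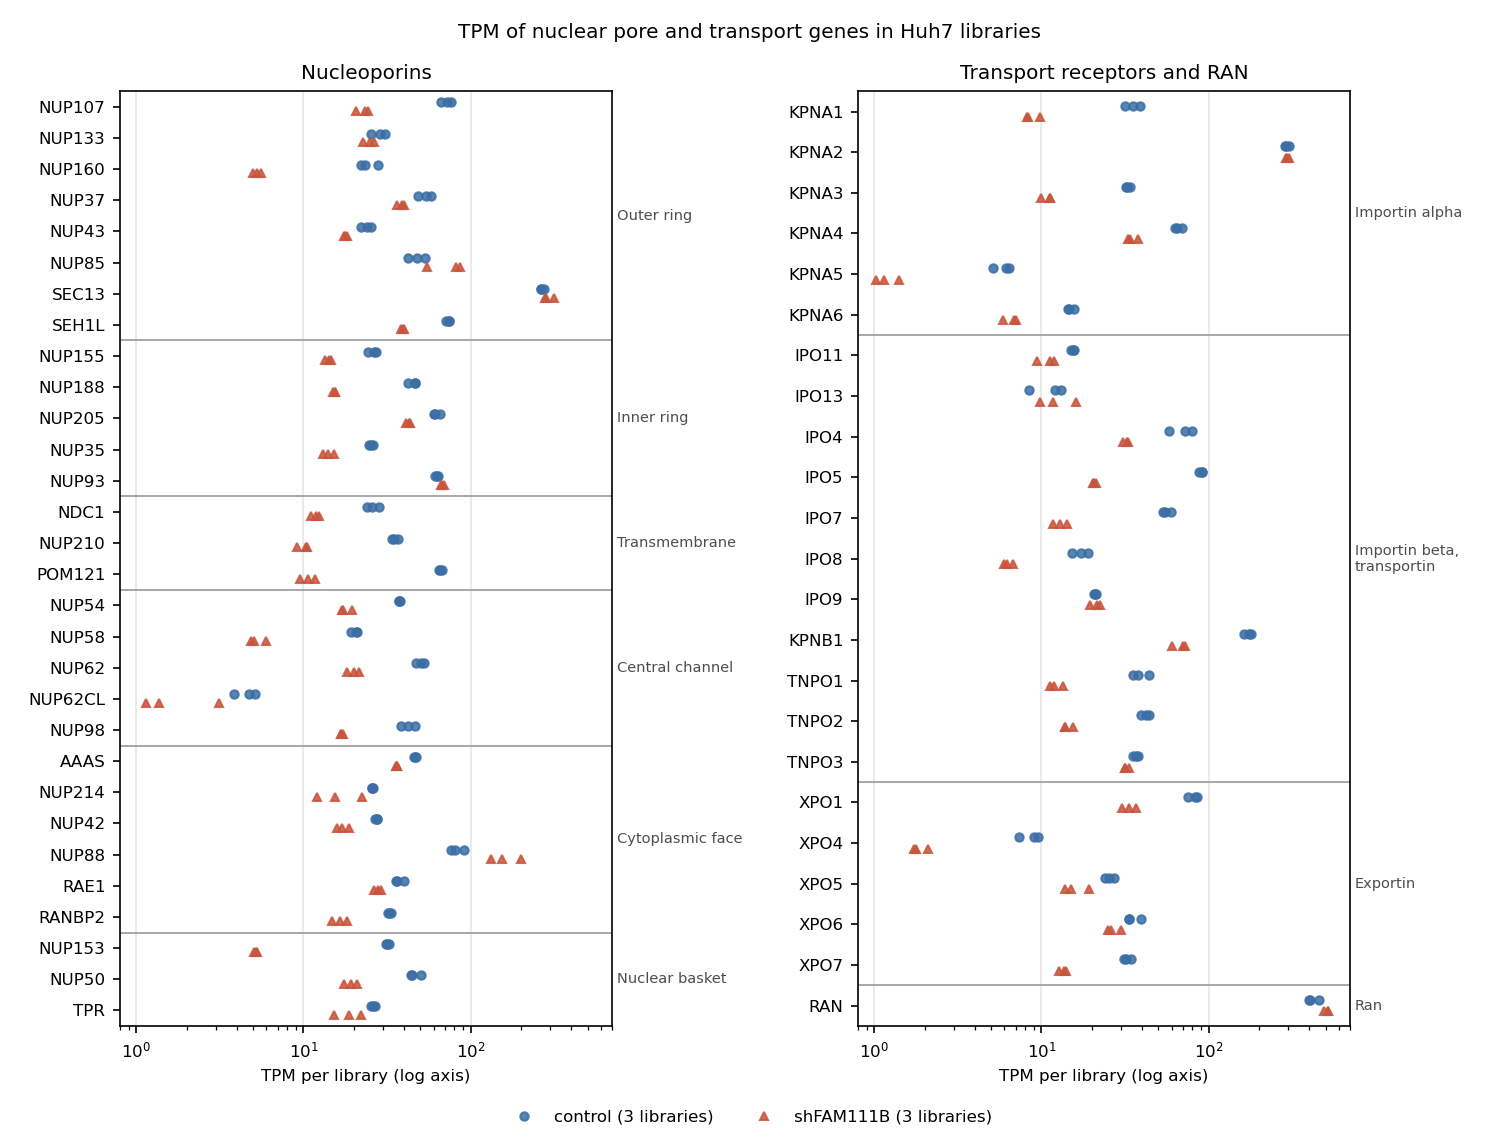
TPM of each protein-coding member that was tested in the 3 control (circles) and 3 shFAM111B libraries (triangles), on a log axis, grouped by role. For most genes the shFAM111B points lie to the left of the control points, while KPNA2 overlaps at 285 to 304 and 291 to 302 TPM and NUP88 lies to the right.

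The outer ring, or Y complex, is the scaffold layer that faces the cytoplasm and the nucleoplasm. Of its 8 members, 5 fell (62.5%, beside 50.9% of all tested genes) and 1 rose (12.5%, beside 21.1%), with a median of -0.44 beside -0.36 for all tested genes. NUP160, an arm of the Y, was at 22.0, 28.1 and 23.3 TPM in control and at 5.56, 5.27 and 4.96 TPM in shFAM111B libraries. The groups were far apart, and NUP160 fell by 2.02 on the log2 scale (SE 0.109, limma adjusted p = 7.05e-06). NUP107, the founding member of the complex, fell to 31.7% of its control mean (log2 fold change -1.61), and SEH1L, which also serves in a nutrient-sensing complex, fell to 53.8%. With the length trend removed NUP107 was at -0.87, short of 2-fold, and SEH1L at -0.25, both still called lower. NUP37 and NUP43, small peripheral subunits, had log2 fold changes of -0.47 and -0.40, close to the median gene. Neither was called with median-of-ratios, upper-quartile or quantile scaling, and they turned to 0.07 and 0.13 when the median of each library was subtracted. After removal of the length trend NUP37 was called lower at -0.24 and NUP43 higher at 0.24. NUP133 was not called and overlapped between groups (28.3 ± 2.62 and 24.6 ± 1.86 TPM, log2 fold change -0.19). Its calls went both ways under the alternatives: lower at -0.32 after rescaling over nuclear protein-coding genes and at -0.26 without control replicate 3, and higher at 0.25 with median-of-ratios scaling, 0.34 with the median of each library subtracted and 0.57 after removal of the length trend.

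NUP85 went the other way. It was at 53.0, 47.5 and 42.4 TPM in control and at 86.2, 55.0 and 82.2 TPM in shFAM111B libraries. Replicate 2 of shFAM111B lay just above the highest control, and NUP85 rose by 0.61 (SE 0.175, limma adjusted p = 0.0162). The adjusted p was 0.0583 without control replicate 3 and 0.0503 without shFAM111B replicate 1. SEC13, a subunit shared with the COPII coat of secretory vesicles, was the most abundant member of the ring at 265, 262 and 276 TPM in control and 282, 279.7 and 315 TPM in shFAM111B libraries. The groups did not overlap, but the difference of 0.13 was not called (limma adjusted p = 0.0883). SEC13 was called higher at 0.58 with median-of-ratios scaling, 0.54 with upper-quartile scaling and 0.66 with the median of each library subtracted, and was at -0.072 with quantile normalization. The subunits of this ring also differed in their ratios, which a common factor on a library cannot change, although a trend with transcript length can. The TPM ratio of NUP160 to NUP85 was 0.416, 0.591 and 0.549 in control and 0.0645, 0.0959 and 0.0604 in shFAM111B libraries. This ratio, like the others given here, was chosen after the values had been seen and is a description with no test.

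The inner ring holds the channel in place. Of its 5 members, 4 fell (80%, beside 50.9% of all tested genes) and none rose (beside 21.1%), at a median of -0.80. NUP188 was at 42.2, 46.2 and 46.4 TPM in control and at 15.5, 15.5 and 15.1 TPM in shFAM111B libraries, and fell by 1.49 (SE 0.064). With the length trend removed NUP188 was called lower at -0.69, short of 2-fold. NUP93, the linker that binds NUP188, was at 61.3, 63.3 and 63.5 TPM in control and at 66.9, 66.3 and 69.5 TPM in shFAM111B libraries. The NUP93 groups did not overlap, yet its log2 fold change of 0.11 (95% confidence interval -0.01 to 0.22) was not called. NUP93 was called higher at 0.56 with median-of-ratios scaling, 0.52 with upper-quartile scaling, 0.29 with quantile normalization, 0.64 with the median of each library subtracted and 0.80 after removal of the length trend, and was at -0.02 after rescaling over nuclear protein-coding genes. The ratio of NUP93 to NUP188 was 1.40 ± 0.0496 in control and 4.41 ± 0.186 in shFAM111B libraries (SD, n = 3). The large scaffold protein NUP205, the paralogue of NUP188, fell to 68.3% of its control mean (-0.54), a call that was lost with median-of-ratios scaling (-0.09), upper-quartile scaling (-0.13) and the median of each library subtracted (-0.0059), and the value turned to 0.15 after removal of the length trend. NUP155 and NUP35, which reach the membrane, fell to 54.2% and 55.9%, but NUP155 was at 0.10 and not called after removal of the length trend.

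The membrane-spanning nucleoporins kept the smallest part of their summed level of all roles, 25.6%. All 3 tested members fell at least 2-fold, beside 23.7% of all tested genes, at a median of -1.72, and their summed level, NUP210L included, went from 127.2 ± 2.19 to 32.6 ± 2.29 TPM. POM121, an early factor in the assembly of pores, was at 67.1, 65.2 and 65.0 TPM in control and at 10.7, 11.7 and 9.48 TPM in shFAM111B libraries. The groups were widely separated, and with a log2 fold change of -2.53 (SE 0.0819, limma adjusted p = 2.46e-06) POM121 had the lowest of the 56. NUP210, a protein of the pore membrane, fell by 1.72 and NDC1, which ties the rings to the membrane, by 1.08. After removal of the length trend POM121 was at -1.67, and NUP210 at -0.80 and NDC1 at -0.26 were called lower but short of 2-fold. POM121 has near-identical copies in the genome, and without a statement of how shared reads were counted its own level is uncertain. The sum over POM121, POM121B and POM121C fell alike, from 92.2 ± 0.715 to 15.3 ± 1.7 TPM. In addition, 18.8% of the exon bases of POM121 are covered by NSUN5P2 on the opposite strand.

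All 5 members of the central channel group fell at least 2-fold, beside 23.7% of all tested genes, at a median of -1.27, although NUP62CL and NUP54 lay close to that limit. After removal of the length trend all 5 were called lower at -0.99 to -0.41, and none reached 2-fold, beside 9.17% of all genes. NUP62, the core FG nucleoporin of the channel, was at 50.2, 47.4 and 52.4 TPM in control and at 21.6, 19.98 and 18.3 TPM in shFAM111B libraries (log2 fold change -1.29, SE 0.0779). NUP58, a partner of NUP62, was at 20.8, 19.2 and 20.6 TPM in control and at 5.03, 5.98 and 4.87 TPM in shFAM111B libraries (-1.76, SE 0.0969). Neither gene overlapped between groups. NUP54, the other partner, fell to 47.7% of its control mean (-1.03). NUP98, whose transcript also encodes the outer ring protein NUP96, fell to 40.1% (-1.27). NUP62CL, a NUP62-like gene, had the widest interval of the group (-1.003, 95% confidence interval -1.62 to -0.38) and the lowest level (4.56 ± 0.673 and 1.88 ± 1.09 TPM). Its call was lost with median-of-ratios, upper-quartile and quantile scaling and with the median subtracted (limma adjusted p of 0.0536 to 0.147), and leaving out 1 library took NUP62CL to as little as -0.82 and NUP54 to as little as -0.995.

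On the cytoplasmic face, where exported mRNA is received, 5 of 6 members fell, beside 50.9% of all tested genes, and none did so by 2-fold, beside 23.7%. RANBP2, the large protein of the cytoplasmic filaments, was at 33.4, 32.5 and 32.2 TPM in control and at 16.6, 18.3 and 14.8 TPM in shFAM111B libraries (-0.95, SE 0.0846), and was at -0.028 and not called after removal of the length trend. NUP88 was at 80.5, 75.99 and 90.8 TPM in control and at 154, 132 and 199 TPM in shFAM111B libraries. The NUP88 groups did not overlap, and it rose by 0.95 (SE 0.148, limma adjusted p = 0.000905) to 196% of its control mean, the largest rise of any protein-coding member. On the opposite strand RPAIN covers 9.82% and RABEP1 8.84% of its exon bases, and whether counting used strand is not stated. The same holds for NUP62, with 10.4% covered by ATF5, and for KPNA1, with 16.3% covered by AC083798.2. NUP214 binds NUP88 in the same subcomplex and went down, at 25.9, 25.6 and 25.9 TPM in control and 12.0, 15.5 and 22.3 TPM in shFAM111B libraries. The spread of the shFAM111B values is wide, and the call for NUP214 (-0.65, limma adjusted p = 0.0202) was lost without any single control library or without shFAM111B replicate 2, at adjusted p of 0.0518 to 0.0551. It was also lost without the filter and with median-of-ratios, upper-quartile and quantile scaling and with the median subtracted, and NUP214 turned to 0.27 after removal of the length trend. The ratio of NUP88 to NUP214 was 3.19 ± 0.283 in control and 10.1 ± 2.4 in shFAM111B libraries. NUP42, an mRNA export factor, fell by 0.64, a call lost with quantile normalization (-0.17) and with the median of each library subtracted (-0.11). RAE1, the partner of NUP98, and AAAS, the protein ALADIN, had changes of -0.41 and -0.36, close to the median gene, and neither was called with median-of-ratios, upper-quartile or quantile scaling. With the median of each library subtracted RAE1 was at 0.12 and not called, and AAAS was called higher at 0.18.

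The nuclear basket reaches into the nucleoplasm, and its 3 members fell, beside 50.9% of all tested genes. NUP153, its FG nucleoporin, was at 32.7, 31.2 and 31.5 TPM in control and at 5.28, 5.06 and 5.17 TPM in shFAM111B libraries. The libraries within each group were nearly equal, and NUP153 fell by 2.41 (SE 0.0692, limma adjusted p = 1.89e-06) to 16.3% of its control mean. NUP50, a mobile partner of NUP153, was at 50.7, 44.2 and 44.8 TPM in control and at 19.4, 20.8 and 17.4 TPM in shFAM111B libraries (-1.24, SE 0.0882). NUP50 was still called lower after removal of the length trend, but at -0.50 and so short of 2-fold. TPR, the coiled-coil protein of the basket, fell less, to 71.3% of its control mean (-0.48, 95% confidence interval -0.78 to -0.18), a call lost with median-of-ratios, upper-quartile and quantile scaling and with the median of each library subtracted (0.05), and TPR was called higher at 0.45 after removal of the length trend.

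Importin alpha proteins are the adaptors that hold a classical nuclear localisation signal and dock on importin beta. Of the 6 tested members, 5 fell (83.3%, beside 50.9% of all tested genes) and KPNA2 did not. KPNA2 was at 285, 292 and 304 TPM in control and at 291, 302 and 295 TPM in shFAM111B libraries. The groups overlapped, and the log2 fold change was 0.01 with a 95% confidence interval of -0.09 to 0.11. This near-zero change depends on the scale: it was called higher at 0.43 to 0.55 with median-of-ratios and upper-quartile scaling and with the median subtracted, called lower at -0.18 with quantile normalization, and not called at -0.11 after rescaling over nuclear protein-coding genes.

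The other adaptors were all well below their control levels. KPNA1 was at 31.5, 38.8 and 35.2 TPM in control and at 8.19, 9.75 and 8.26 TPM in shFAM111B libraries (-1.89, SE 0.105). KPNA3 was at 33.9, 32.5 and 31.8 against 11.2, 11.3 and 9.92 TPM (-1.51, SE 0.0756). KPNA4, the sister of KPNA3, was at 69.4, 63.0 and 64.3 against 32.9, 33.8 and 38.0 TPM (-0.89, SE 0.073). None of these groups overlapped. KPNA5 was at 6.36, 6.10 and 5.13 against 1.14, 1.03 and 1.40 TPM (-1.65, SE 0.133). KPNA6 was at 14.6, 15.6 and 14.4 against 7.01, 6.84 and 5.92 TPM (-1.06, SE 0.0923). After removal of the length trend KPNA4 and KPNA6 were no longer called. After that removal KPNA4 was at -0.13 and KPNA6 at -0.05, near KPNA2 at 0.03, while KPNA1, KPNA3 and KPNA5 were at -0.97 to -0.78. The longest transcript of KPNA2 has 2456 nt, and those of the other 5 tested adaptors have 4474 to 11311 nt. In TPM as deposited, KPNA2 took a larger share of the importin alpha sum, a share that a common factor on a library cannot change but a trend with length can: 64.6%, 65.1% and 66.7% in control and 82.7%, 82.8% and 82.2% in shFAM111B libraries. The sum itself went from 448.5 ± 7.27 to 359 ± 6.57 TPM.

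**Figure D3:**
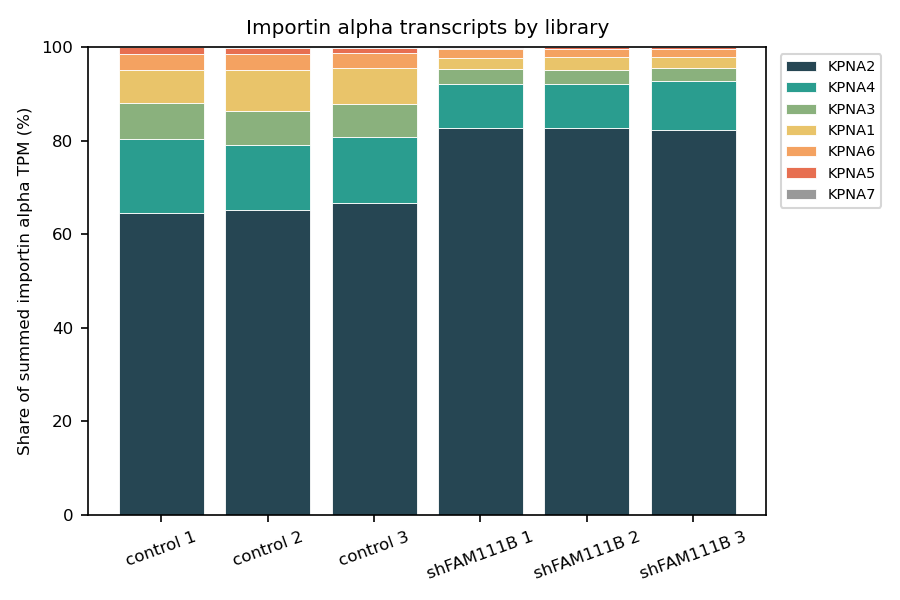
Share of the summed importin alpha TPM (%) taken by each of the 7 genes in each control and shFAM111B library, as stacked bars. KPNA2 takes 64.6% to 66.7% in the controls and 82.2% to 82.8% after knockdown, and every other gene with a visible share takes less.

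The importin beta and transportin group holds the carriers that pass the channel with their cargo. Of its 11 members, 9 fell (81.8%, beside 50.9% of all tested genes), 7 of them at least 2-fold (63.6%, beside 23.7%), and the summed level went from 569 ± 15.9 to 243 ± 6.45 TPM. KPNB1, the partner of the importin alpha adaptors, was at 173, 162 and 178 TPM in control and at 70.04, 72.5 and 60.8 TPM in shFAM111B libraries. The groups were far apart and KPNB1 fell by 1.33 (SE 0.0768, limma adjusted p = 8.96e-06). The ratio of KPNA2 to KPNB1 was 1.72 ± 0.0765 in control and 4.40 ± 0.401 in shFAM111B libraries. IPO7, an importer of ribosomal proteins, fell to 23.2% of its control mean (-2.03). TNPO1 and TNPO2, which carry RNA-binding proteins such as hnRNP A1, fell by 1.60 and 1.48, and IPO8, the closest relative of IPO7, by 1.30. After removal of the length trend IPO7 was at -1.21 and IPO5 at -1.36, and the other 5 of the 7 were called lower at -0.79 to -0.41, short of 2-fold.

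IPO5, another importer of ribosomal proteins and histones, was at 91.8, 87.8 and 90.9 TPM in control and at 20.2, 21.3 and 20.7 TPM in shFAM111B libraries (-2.07, SE 0.0516, limma adjusted p = 1.54e-06). Its value is uncertain, because a processed pseudogene of it was listed with the opposite change. IPO5P1, at chr19:23255053-23257939 on the minus strand, was at 5.11, 9.93 and 10.0 TPM in control and at 39.1, 39.4 and 38.7 TPM in shFAM111B libraries. IPO5P1 rose by 2.15 (SE 0.224, limma adjusted p = 0.000116), and how reads that fit both genes were divided was not tested. The sum of the pair went from 98.5 ± 2.09 to 59.8 ± 0.747 TPM, which is 60.7% of the control, beside 23.0% for IPO5 by itself. None of the other pseudogene entries left out had a group mean above 0.29 TPM.

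The remaining carriers of this group changed less. IPO4, a histone importer, fell by 1.09 (-0.99 without control replicate 3), but 69.3% of its exon bases are shared with the same-strand gene AL136295.4, so its level is uncertain. IPO11 had a log2 fold change of -0.47, which was not called with median-of-ratios or upper-quartile scaling and turned to 0.06 when the median of each library was subtracted and to 0.29 after removal of the length trend. TNPO3, the carrier of SR splicing factors, was called lower at -0.18 but higher under most of the other scalings (0.26 with median-of-ratios scaling), and its call was lost when any 1 of 4 libraries was left out. IPO9, a histone importer, was not called, at 20.9 ± 0.308 and 21.1 ± 1.57 TPM (0.02, 95% confidence interval -0.16 to 0.19). IPO9 was called higher at 0.41 to 0.55 under every scaling run except the rescaling over nuclear protein-coding genes (-0.11), and at 0.95 after removal of the length trend. IPO13, which carries cargo both ways, overlapped widely between groups (11.2 ± 2.51 and 12.6 ± 3.26 TPM, 95% confidence interval -0.36 to 0.66). IPO13 was called higher at 0.57 with median-of-ratios scaling, 0.67 with quantile normalization, 0.68 with the median of each library subtracted and 0.83 after removal of the length trend.

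All 5 exportins fell, beside 50.9% of all tested genes, 3 of them at least 2-fold (60%, beside 23.7%), but the calls of XPO5 and XPO6 depended on the scaling. After removal of the length trend XPO1, XPO4 and XPO7 were called lower at -0.54, -0.79 and -0.44, so no exportin reached 2-fold. XPO1, the general exporter of proteins with a leucine-rich export signal, was at 85.7, 82.4 and 74.7 TPM in control and at 33.3, 36.8 and 30.4 TPM in shFAM111B libraries (-1.25, SE 0.086, limma adjusted p = 1.74e-05). XPO4, the lowest of the exportins, was at 9.57, 9.08 and 7.33 TPM in control and at 2.11, 1.73 and 1.79 TPM in shFAM111B libraries (-1.74, SE 0.132). No library of one group reached the other in either gene. XPO7 fell to 41.5% of its control mean (-1.21) and XPO5, the exporter of microRNA precursors, to 62.7% (-0.65). The call of XPO5 was lost with median-of-ratios (-0.22), upper-quartile (-0.26) and quantile (-0.17) scaling and with the median subtracted (-0.12), and XPO5 turned to 0.16 after removal of the length trend. XPO6, which exports actin, changed by -0.37, the size of the median gene, and was not called with median-of-ratios (0.07), upper-quartile or quantile scaling or with the median subtracted. XPO6 was called higher at 0.29 after removal of the length trend.

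RAN was at 405, 457 and 398 TPM in control and at 520.1, 515 and 491 TPM in shFAM111B libraries. The groups did not overlap and RAN rose by 0.28 (SE 0.0618, limma adjusted p = 0.00522), although it was at -0.11 with quantile normalization and missed the threshold after rescaling over nuclear protein-coding genes (0.15, limma adjusted p = 0.0837). The ratio of RAN to KPNB1 went from 2.46 ± 0.309 to 7.54 ± 0.502. Of 17 other tested genes of the Ran cycle and of further carriers, 6 rose (35.3%, beside 21.1% of all tested genes) and 7 fell (41.2%, beside 50.9%), at a median of -0.12. RCC1, the nuclear exchange factor, was at 72.4 ± 3.71 and 80.2 ± 3.7 TPM (0.15, not called, but called higher at 0.29 to 0.68 under every scaling run except the rescaling over nuclear protein-coding genes and at 0.42 after removal of the length trend), and RANGAP1, the cytoplasmic activator of its hydrolysis, was at 77.4 ± 5.49 and 73.4 ± 3.17 TPM (-0.07, not called). The calls of RANGAP1 went both ways, lower at -0.20 after rescaling over nuclear protein-coding genes and higher at 0.34 to 0.46 with median-of-ratios and upper-quartile scaling, the median subtracted and the length trend removed. RANBP1, a cofactor of RANGAP1, rose by 0.29, and NUTF2, which brings Ran back into the nucleus, by 0.50. The ratio of RAN to RANBP1 was 0.806 ± 0.067 in control and 0.796 ± 0.0442 in shFAM111B libraries.

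Among these genes RANGRF, a Ran-binding factor, had the largest rise. It was at 17.6, 16.2 and 18.6 TPM in control and at 37.4, 37.8 and 45.0 TPM in shFAM111B libraries (1.15, SE 0.0931). XPOT, the exporter of tRNA, had the largest fall, from 74.0, 77.6 and 70.5 TPM to 17.3, 17.9 and 16.6 TPM (-2.04, SE 0.0623). Neither overlapped between groups. CSE1L, which returns importin alpha to the cytoplasm, was at 114, 112 and 112 TPM in control and at 71.5, 76.8 and 71.2 TPM in shFAM111B libraries (-0.62, SE 0.0489), and its call was lost with the median of each library subtracted (-0.085). The mRNA export receptor NXF1 rose by 0.39, and of its small partners NXT2 fell by 1.84 and NXT1 was not called (-0.12).

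Of 10 other tested factors that work at the pore, 8 fell (80%, beside 50.9% of all tested genes) and none rose (beside 21.1%), at a median of -1.06. AHCTF1, the protein ELYS that seeds pores on chromatin, was at 32.4, 30.9 and 34.2 TPM in control and at 10.1, 6.92 and 5.05 TPM in shFAM111B libraries (-2.05, SE 0.206). AHCTF1 was called lower at -1.05 after removal of the length trend. POM121C, the copy of POM121, was at 22.8, 24.2 and 24.0 TPM in control and at 4.87, 5.06 and 3.94 TPM in shFAM111B libraries (-2.14, SE 0.102). The protease SENP2, a partner of NUP153, fell by 1.94, and GLE1, the mRNA export factor that works with NUP42 and DDX19B, by 1.16.

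In the TREX mRNA export complexes 6 of 17 tested genes rose (35.3%, beside 21.1% of all tested genes) and 7 fell (41.2%, beside 50.9%), at a median of -0.04. SEM1, a small subunit also found in the proteasome lid, was at 441, 492 and 401 TPM in control and at 899, 901 and 1029 TPM in shFAM111B libraries (1.08, SE 0.0883). ZC3H11A, an mRNA export factor with zinc fingers, was at 37.7, 37.9 and 37.4 against 12.3, 13.2 and 11.02 TPM (-1.56, SE 0.0786). Both pairs of groups were fully apart. In the nuclear lamina and envelope 13 of 16 tested genes fell (81.2%, beside 50.9%) and 2 rose (12.5%, beside 21.1%), at a median of -0.60. LEMD3, an inner membrane protein, was at 17.8, 16.9 and 15.9 TPM in control and at 3.83, 4.28 and 3.65 TPM in shFAM111B libraries (-1.86, SE 0.0942). BANF1, the chromatin bridge that binds such proteins, was at 191, 187 and 209 TPM in control and at 249, 229 and 262 TPM in shFAM111B libraries (0.33, SE 0.0679). The lamins were split in TPM as deposited, with LMNB1 at -1.26 and LMNB2 at -0.54 lower and LMNA at 0.23 higher. Within the 4 lists, only RCC1, RANGAP1, CSE1L and AHCTF1 were followed singly under the alternatives. The changes of the other genes named from these lists hold for the TPM as deposited. Over the 4 lists together, 35 of 60 tested genes fell and 14 rose, or 58.3% and 23.3%, beside 50.9% and 21.1% of all tested genes. This balance moved with that of all tested genes: median-of-ratios scaling gave 23 lower and 25 higher, beside 35.2% and 35.8% of all tested genes, and subtraction of the median of each library 20 and 26, beside 29.4% and 41.6%.

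Of the copies of RANBP2, RGPD6 reached 1 TPM in every library and fell, from 14.04 ± 1.32 to 4.68 ± 0.342 TPM (-1.40). RGPD5, at 7.74 ± 0.512 and 0.707 ± 0.447 TPM, and RGPD8, at 5.05 ± 0.528 and 1.06 ± 0.17 TPM, passed the filter only through the control libraries, so their values are a description. RGPD1, RGPD3 and RGPD4 stayed at or below 0.53 TPM, and RGPD2 was at 13.9 TPM in control replicate 3, 7.38 TPM in shFAM111B replicate 1 and at most 0.53 TPM elsewhere. How reads that such copies share were divided is not stated, so their single levels are uncertain, but the sum of RANBP2 and its 7 listed copies went from 65.4 ± 6.46 to 25.8 ± 5.16 TPM. POM121B, let in by the control libraries in the same way, was at 2.79 ± 0.979 and 0.03 ± 0.052 TPM, and POM121L2 and POM121L12 were listed at 0 throughout.

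Of the noncoding RNAs that share a member's name, 1 was called higher (33.3%, beside 21.1% of all tested genes) and 2 were not called. NUP153-AS1, the antisense RNA at the start of NUP153 (chr6:17706257-17707344, plus strand), was at 2.03, 1.05 and 0.77 TPM in control and at 3.94, 3.28 and 5.48 TPM in shFAM111B libraries. The groups did not overlap, and the difference was 1.21 on the log2 scale. It counts among the members called higher, but as the filter let it in through the shFAM111B libraries, its value is given as a description. Of its exon bases, 51.3% are shared with NUP153 on the other strand, and whether strand was used in counting is not stated, so reads of the pair cannot be told apart. NUP50-DT, which is transcribed away from NUP50, was at 6.76, 6 and 5.37 TPM in control and at 5.66, 9.66 and 9.61 TPM in shFAM111B libraries (0.37, not called), and was called higher at 0.74 to 0.91 with median-of-ratios, upper-quartile and quantile scaling and with the median of each library subtracted. IPO9-AS1 was near the detection filter at 0.96 ± 0.303 and 1.23 ± 0.768 TPM and was not called. The 53 tested protein-coding members alone gave 44 lower (83%, beside 50.9% of all tested genes) and 3 higher (5.66%, beside 21.1%), at a median of -1.003.

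The members have long transcripts, and long transcripts were lower in these libraries in general. The longest annotated transcript had a median of 5220 nt over the tested members and 3212 nt over all 14251 tested genes with a length. Across genes, length and log2 fold change had a Spearman correlation of -0.52 over the 56 members and -0.46 over all genes, as a description, since all points come from the same 6 libraries and share their RNA quality and depth. Among transcripts over 4000 and up to 8000 nt, the class of 28 members, 27 fell (all but NUP133) at a median of -1.29, and 70.8% of all tested genes in that class fell at a median of -0.78. Among those over 2000 and up to 4000 nt, 9 of 16 members fell at a median of -0.38, beside 50.7% and -0.32 of all. Among those over 8000 nt, 7 of 9 fell at a median of -0.89, beside 77.6% and -0.94.

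When the trend of the values with length and mean expression was removed in each library, 31 of 56 members were lower and 13 higher, at a median of -0.26, beside 32.7% and 30.5% of all genes and a median of -0.02. POM121 was then at -1.67, NUP153 at -1.48, IPO5 at -1.36, NUP160 at -1.13 and KPNB1 at -0.79, and NUP88 at 1.18. The levels also depend on how the libraries are scaled to each other. With median-of-ratios scaling 32 members were lower and 12 higher at a median of -0.48, and all genes had a median of 0.03. Upper-quartile scaling gave 32 and 10, beside 36.4% of all tested genes lower and 34.3% higher. Quantile normalization gave 33 and 8, beside 36.8% and 32.5%. Subtraction of the median of each library gave 31 and 13, beside 29.4% and 41.6%, and rescaling over nuclear protein-coding genes 45 and 2, beside 60.9% and 16.8%. The median of the members stood 0.51 to 0.60 below that of all genes under these scalings and 0.24 below it after removal of the length trend. Under the alternatives run on all 3 shFAM111B libraries or with 1 library left out, 27 members were called lower every time. Among them were POM121, NUP153, IPO5, IPO7, NUP160, KPNA1, KPNB1 and XPO1. None of these alternatives changed how reads were divided between genes, so the size of the fall of IPO5 stays uncertain. The sum of IPO5 and IPO5P1 was at 60.7% of its control mean. NUP88 was called higher every time. The share of all tested genes called alike every time is not given here, so these calls are a description.

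**Figure D4:**
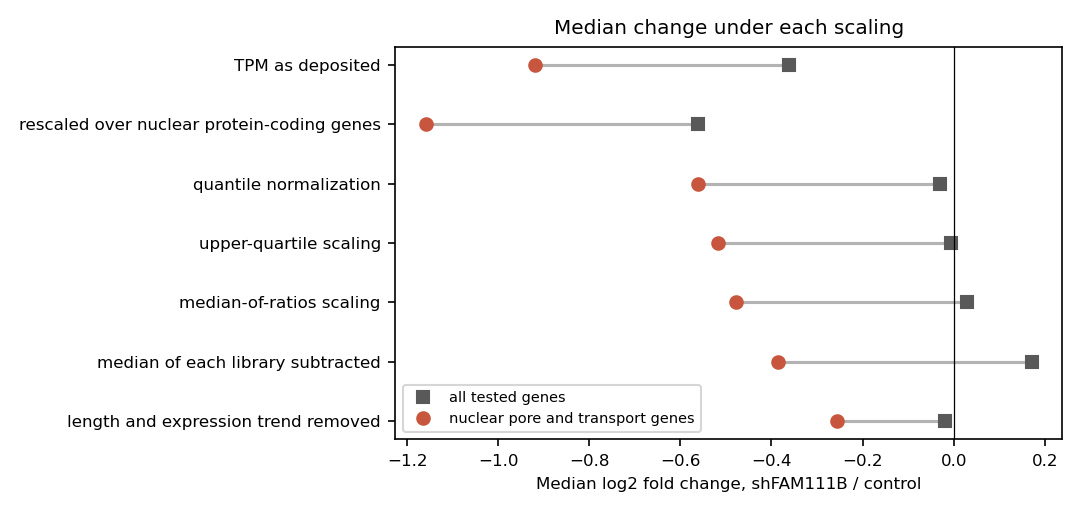
Median log2 fold change (shFAM111B over control) of the tested members (circles) and of all tested genes (squares) with the TPM as deposited and under 6 other treatments of the values. The circle lies left of the square each time, by 0.24 after removal of the length and expression trend and by 0.51 to 0.60 in the others.

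The promoters of members that stayed, rose or fell are shown because such genes sit side by side in 1 family or 1 complex. In the importin alpha family KPNA2 was not called and KPNA1 fell, and of the pore proteins NUP88 rose and NUP153 fell, so each pair was chosen after its values had been seen. Each run is the 250 bases before a RefSeq start site (GRCh38.p14), written in the direction of transcription. Capitals mark CCAAT or its reverse complement ATTGG, the core of the CCAAT box that the factor NF-Y binds.
KPNA2 (chr17:68035485-68035734, plus strand): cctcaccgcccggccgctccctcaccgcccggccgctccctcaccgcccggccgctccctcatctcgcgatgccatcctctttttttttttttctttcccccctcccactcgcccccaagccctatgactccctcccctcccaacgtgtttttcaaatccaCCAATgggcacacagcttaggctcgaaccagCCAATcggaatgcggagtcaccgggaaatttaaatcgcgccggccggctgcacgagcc
KPNA1 (chr3:122514940-122515189, minus strand): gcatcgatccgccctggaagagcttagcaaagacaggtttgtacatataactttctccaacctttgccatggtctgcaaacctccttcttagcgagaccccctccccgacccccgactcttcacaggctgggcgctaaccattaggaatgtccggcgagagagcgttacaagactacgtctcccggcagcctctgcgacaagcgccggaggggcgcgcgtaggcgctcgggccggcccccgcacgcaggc
NUP88 (chr17:5419663-5419912, minus strand): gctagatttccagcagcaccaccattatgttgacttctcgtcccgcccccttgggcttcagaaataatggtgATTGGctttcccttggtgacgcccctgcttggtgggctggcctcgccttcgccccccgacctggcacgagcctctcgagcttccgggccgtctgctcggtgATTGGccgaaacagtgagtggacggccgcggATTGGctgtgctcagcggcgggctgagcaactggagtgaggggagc
NUP153 (chr6:17706926-17707175, minus strand): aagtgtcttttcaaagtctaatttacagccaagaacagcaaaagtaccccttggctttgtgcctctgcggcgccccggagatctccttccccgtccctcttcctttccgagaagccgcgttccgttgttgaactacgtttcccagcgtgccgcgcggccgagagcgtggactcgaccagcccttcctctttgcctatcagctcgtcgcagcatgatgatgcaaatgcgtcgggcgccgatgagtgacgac
KPNA2 held 2 matches and NUP88 3, whereas the windows of KPNA1 and NUP153 held none, and that of NUP153 lies within NUP153-AS1. Of 63 windows of the 49 members with an entry (some have several starts), 41.3% held CCAAT on either strand, beside 32.7% of the 22198 windows of all protein-coding genes. The share was 38.8% in the windows of members that fell (19 of 49) and 41.7% in those of the tested members that did not (5 of 12). Several starts of 1 gene count as separate windows here. The palindromic NRF1 motif was in 3 member windows, or 4.76%, and in 1.28% of all. E2F-type motifs (TTTGGCGC, TTTCCCGC or TTTCGCGC on either strand) were in 1.59% and 2.94%. A match is a run of letters and not a bound site, and no factor was measured here.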

How the data were processed

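RNA of 6 Huh7 libraries was analysed (the 6 of Hep3B were not used here). The table deposited by the authors holds TPM per library, group means, and a comparison of the groups (fold change, its log2, p-value and adjusted p-value). The means and that comparison were not used. The submitters' processing notes name RSEM, DESeq2 and hg38, and give no versions. The paper names a TruSeq kit, the labels a stranded poly(A) kit. TPM keep no depth, so no counting error is given, and they are relative, so genes that take more leave less for others.

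Genes at 1 TPM or more in 3 or more libraries entered the test, and log2(TPM + 1) was compared with limma 3.58.1 (lmFit, eBayes with a trend) under R 4.3.3, without covariates and with Benjamini-Hochberg adjustment over all tested genes. The confidence intervals are at 95%. Tables, figures and sequences were made with Python 3.11.15, pandas 2.3.3, scipy 1.17.1 and matplotlib 3.10.9. The limma fit was tested on simulated data. Positions, exons and lengths come from GENCODE release 29 (GRCh38), which holds 96.3% of the listed genes and all 58 members. Promoters are from RefSeq (GRCh38.p14), and the hairpin target from the study's supplement.

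The members, the role lists, the 4 lists of other transport and envelope genes (61 genes), the copies and the cell markers were chosen with earlier results of these data known. Values per library are given for the most abundant, the most raised and the most lowered member of each role (adjusted p under 0.05, no overlap), for all tested importin alpha genes and RAN, for the most raised and most lowered gene of each other list, and for CSE1L and AHCTF1. Those of SEC13 and NUP93 are given as the most abundant of their roles, and those of NUP214 and IPO5P1 were added after their values were seen, as were the other companion genes named besides RCC1 and RANGAP1. The alternatives were other filters, a pseudocount of 0.1, a replicate block, leaving out each library, 5 scalings, limma without a trend and removal of the length and expression trend by loess (span 0.75). Single values of a few genes are not reported here, while the counts include them.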

Additional observations from a re-analysis of the deposited data

How the results depend on the processing

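When 1 library was left out, 42 to 44 members were called lower and 3 or 4 higher, beside 48.2% to 50.5% and 19.3% to 20.9% of all tested genes. At 2-fold 25 to 27 were lower and 1 or 2 higher, beside 23.4% to 24.7% and 6.38% to 7.55%. The medians of the members were -0.93 to -0.88. The other lists then had 13 to 15 higher and 34 or 35 lower calls, and FAM111B stayed between -2.25 and -2.15. Among 60 single genes under the alternatives run on each, 881 values kept their direction and call, 45 lost and 35 gained a call and 54 changed sign. The labels number the replicates alike in both groups, but same-numbered libraries did not deviate together (correlations of 0.054, 0.0349 and 0.0908), and not every library matched its own number best. With the replicate number as a block the counts were 4 higher and 44 lower, beside 21% and 50% of all tested genes. At 2-fold they were 1 and 27, beside 6.92% and 23.7%. The other lists had 14 higher and 35 lower, and the medians were as before. No filter, a pseudocount of 0.1 and limma without a trend changed no count of members by over 1.5 times, but no filter moved the median to -0.89. At least 1 TPM in every library moved it to -0.97, with 0 higher at 2-fold, beside 5.35% of all tested genes. Protein-coding members alone had a median of -1.003, with 0 higher at 2-fold, beside 6.82%. With shFAM111B replicate 3 alone the median was -0.89. The last pair were chosen after seeing the data.

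Scaling and removal of the length trend moved the counts, and the cause was not tested. The order here is median-of-ratios scaling, upper-quartile scaling, quantile normalization, subtraction of the median, rescaling over nuclear protein-coding genes and removal of the length trend. Members called higher were 12, 10, 8, 13, 2 and 13, beside 35.8%, 34.3%, 32.5%, 41.6%, 16.8% and 30.5% of all tested genes. Those higher at 2-fold were 3, 3, 1, 3, 0 and 2, beside 14.1%, 13.2%, 11.8%, 18%, 4.12% and 9.55% of all tested genes. Those lower at 2-fold were 15, 15, 17, 12, 30 and 5, beside 12.5%, 13.3%, 12.8%, 9.07%, 31.2% and 9.17%. The medians of the members were -0.48, -0.52, -0.56, -0.39, -1.16 and -0.26. In the other lists the calls were 25 higher and 23 lower with median-of-ratios scaling, 25 higher with upper-quartile scaling, and 26 higher and 20 lower with the median subtracted.

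These single values turned. With median-of-ratios scaling AAAS was at 0.089, NUP133 at 0.25, NUP43 at 0.031, RAE1 at 0.031, TNPO3 at 0.26, XPO6 at 0.066 and RANGAP1 at 0.38. With upper-quartile scaling AAAS was at 0.049, NUP133 at 0.21, TNPO3 at 0.22, XPO6 at 0.027 and RANGAP1 at 0.34. With quantile normalization IPO11 was at 0.047, KPNA2 at -0.18, NUP133 at 0.23, NUP43 at 0.073, RAN at -0.11, SEC13 at -0.072, TNPO3 at 0.19, XPO6 at 0.027 and RANGAP1 at 0.066. With the median subtracted AAAS was at 0.18, IPO11 at 0.064, NUP133 at 0.34, NUP37 at 0.065, NUP43 at 0.13, RAE1 at 0.12, TNPO3 at 0.35, TPR at 0.052, XPO6 at 0.16 and RANGAP1 at 0.46. Rescaled over nuclear protein-coding genes, IPO9 was at -0.11, KPNA2 at -0.11, NUP93 at -0.018 and SEC13 at -0.00053. With the length trend removed IPO11 was at 0.29, IPO9-AS1 at -0.020, NUP133 at 0.57, NUP155 at 0.10, NUP205 at 0.15, NUP214 at 0.27, NUP43 at 0.24, RAE1 at 0.071, TNPO3 at 0.46, TPR at 0.45, XPO5 at 0.16, XPO6 at 0.29 and RANGAP1 at 0.41. Leaving out 1 library took IPO13 to between -0.035 and 0.30, IPO9 to between -0.026 and 0.074, IPO9-AS1 to between -0.12 and 0.33 and KPNA2 to between -0.0082 and 0.038, and none of these was called. Adjusted p over the leave-one-out fits rose above 0.05 for NUP214, NUP85 and TNPO3, and fell below it for NUP133, NUP50-DT and RCC1.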
